A study of Mus musculus with 2 samples.

Results

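The 10 genes examined here encode the constant parts of mouse antibodies and the chain that links them. They were the heavy chain genes Igha, Ighm, Ighd, Ighg1, Ighg2b, Ighg2c and Ighg3, the light chain genes Igkc and Iglc1, and Jchain. All 10 were found by symbol among the 32285 genes of both matrices. They were followed in cells of the colon lamina propria, the tissue layer beneath the gut lining, profiled singly in 2 mouse libraries, 1 for each group.

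The study set mice that lack Runx3 in cells with Lyz2-driven Cre, a myeloid driver, against RUNX3 fl/fl littermates on a C57BL/6 background. All animals therefore carried the floxed Runx3 alleles, and B cells and plasma cells are not a target of this Cre. The libraries were titled Runx3_fl (the first below) and Runx3 (the second), and paired values are given in this order. The titles do not say which mice carried Cre, so the libraries are called by title alone. Each library was pooled from male mice 8 weeks old, and the labels give the cells as CD11b-positive.

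Several values were set beside these labels, and Xist, given below, went against the stated sex in the library titled Runx3_fl. Runx3 was at 151 CPM (a gene's unique molecular identifiers, UMIs, per 1000000 UMIs of a class) in macrophages of the library titled Runx3_fl and at 253 CPM in those of the library titled Runx3. A Xist UMI, the RNA of an inactive X chromosome, was present in 29.9% of kept cells of the library titled Runx3_fl and in 0.122% of those of the library titled Runx3, although males were stated. The libraries held 11885 and 8167 cells after filtering, with medians of 9573 and 5731 UMIs, and shared 37 cell barcodes. Itgam, which encodes CD11b, had a UMI in 44.3% and 10.2% of plasma cells and in 14.4% and 9.31% of B cells. These are RNA counts and do not measure the CD11b protein. With 1 library per group no difference has a replicate check, no test was possible, and all 95% intervals cover counting error only.

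B cells display antibody on their surface as a receptor, IgM and IgD at first. After class switching, the same variable region is joined to another constant gene of the heavy chain locus. Plasma cells secrete antibody in bulk, and in the gut most of it is IgA, which leaves as pairs joined by the J chain and is carried across the epithelium. Each antibody also has a kappa (Igkc) or a lambda (Iglc) light chain.

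The heavy chain genes lie on the minus strand of chromosome 12 in mm10, in the order Ighm, Ighd, Ighg3, Ighg1, Ighg2b, Ighg2c and Igha by falling coordinate. Ighm (ENSMUSG00000076617) spans chr12:113418558-113422730 and Igha (ENSMUSG00000095079) spans chr12:113254830-113260236. Igkc is at chr6:70726435-70726966, Iglc1 at chr16:19061618-19062071 and Jchain at chr5:88519809-88527891. The last 30 coding bases of the secreted forms in the GENCODE M21 transcripts are shown because the end of the chain separates the isotypes that carry a J chain from those that do not. Each lies within 1 exon, is written 5′ to 3′ and has its last 2 codons in capitals.
Igha: atcatgtcagagggagatggcatcTGCTAC
Ighm: atcatgtctgacacaggcggcaccTGCTAT
Ighg1: gagaagagcctctcccactctcctGGTAAA
Ighg2b: aagaagaccatctcccggtctccgGGTAAA
Ighg2c: actaagaccatctcccggtctctgGGTAAA
Ighg3: cagaagaacctgtctcgctcccctGGTAAA
Igkc: attgtcaagagcttcaacaggaatGAGTGT
Iglc1: gagaagagtttgtcccgtgctgacTGTTCC

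Igha and Ighm are alike at 22 of these 30 bases and both end with a cysteine codon followed by a tyrosine codon. That cysteine is the residue through which the secreted chain is joined to the J chain. The 4 Ighg genes end instead with glycine and lysine codons. Igkc ends with the cysteine codon that ties the light chain to the heavy chain, and Iglc1 has the same cysteine one codon earlier. The membrane ends of Ighg2b and Ighg2c were equal at 30 of 30 bases:
Ighg2b, membrane form: gactacagaaacatgattgggcagGGAGCC
Ighg2c, membrane form: gactacagaaacatgattgggcagGGAGCC
Reads that lie wholly within such a stretch fit both genes equally, and how they were counted was not examined. The secreted ends of the same genes were equal at 27 of 30 bases.

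Cells were put into classes by marker UMIs. B cells needed 1 UMI each of Cd79a and Ms4a1, plasma cells 2 each of Mzb1 and Derl3, and natural killer (NK) cells, T cells and macrophages were defined by Ncr1, Cd3e, and Csf1r with C1qa. There were 118 B cells in the library titled Runx3_fl, 0.993% of kept cells (95% interval 0.822 to 1.19), and 881 in the library titled Runx3, 10.8% (10.1 to 11.5). There were 183 plasma cells, 1.54% (1.33 to 1.78), and 49, 0.600% (0.444 to 0.792). All 6 check markers of plasma cells were present in that class of both libraries, with Xbp1 and Sec11c in 100% of cells. All 6 check markers of B cells were present in theirs, with Ebf1 in 97.5% and 99.7%. Siglech, which marks plasmacytoid dendritic cells, had no UMI in plasma cells of either library.

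Of the 7 classes, plasma cells had the highest level of Igha, Igkc, Iglc1, Jchain, Ighg1, Ighg2b and Ighg3 in both libraries. Igha was at 41333 CPM (41159.6 to 41507) in the library titled Runx3_fl. It was at 166864 CPM (166176 to 167554) in the library titled Runx3, a log2 ratio of 2.01. Igkc was at 91149 and 201338 CPM, a log2 ratio of 1.14. Jchain was at 15899.9 and 41826 CPM, a log2 ratio of 1.40. Without plasma cells that had a Mki67 UMI, a choice made after seeing the data, the ratios of Igkc and Jchain were 0.69 and 0.60, under 2-fold, and with 5 UMIs of each plasma marker Igkc was also at 0.69. Ighm was at 868 and 6962 CPM, and Iglc1 at 2803 and 7805 CPM. Ighg2b was at 3338 and 6328 CPM, a log2 ratio of 0.92 that was -1.26 with 5 UMIs of each plasma marker and 0.02 with clusters in place of marker classes. The ratio of Iglc1, 1.48, was -5.41 with 5 UMIs and -0.26 without cells that had a Mki67 UMI.

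The other subclasses of IgG were lower in the library titled Runx3 over all plasma cells. Ighg2c, the C57BL/6 form of a subclass common in antiviral responses, was at 3547 CPM in the library titled Runx3_fl and at 27.4 CPM in the library titled Runx3. Its log2 ratio of -6.97 was -3.58 with clusters, -5.86 with 1 UMI of each plasma marker and -1.69 without cells that had a Mki67 UMI. Ighg1 was at 505 and 20.7 CPM, and Ighg3 at 373 and 28.1 CPM, log2 ratios of -4.54 and -3.68 that turned to 0.96 and 5.23 without cells that had a Mki67 UMI. Ighd was at 2.09 CPM (1.04 to 3.74) and 1.48 CPM (0.179 to 5.34), with overlapping intervals.

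By a difference of 2-fold or more, on log2 of CPM plus 1, 5 of the 10 members were higher in plasma cells of the library titled Runx3 and 3 were lower. Of 11063 genes with at least 10 UMIs, 5.76% were higher and 34.2% lower by that measure. The median member had a log2 ratio of 1.03 and the median of all genes tested was -0.68. With that median set to 0, the ratio of Igha became 2.69, and with totals counted without immunoglobulin genes and Jchain it became 2.64.

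**Figure D1:**
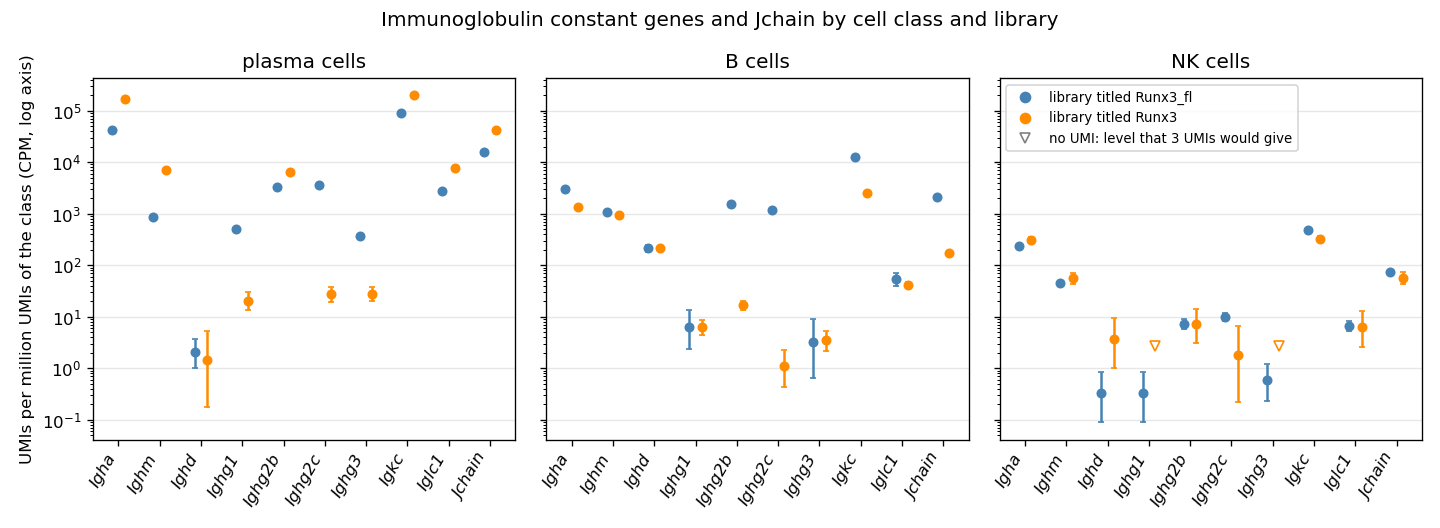
Level of each gene in plasma, B and NK cells of both libraries, as CPM on a log axis. Bars are exact 95% Poisson intervals, often smaller than the point, and open triangles mark the level that 3 UMIs would give where none was seen. Igha, Igkc and Jchain stand highest in plasma cells, with the library titled Runx3 above the other there.

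The sums rested on many cells for the abundant members and on few for the rare ones. The 10 plasma cells with most Igha UMIs held 13.8% of the class's Igha in the library titled Runx3_fl and 36.8% in the library titled Runx3. For Ighm the 10 top cells held 88.3% and 100% of the UMIs. Iglc1 was as concentrated, with 97.9% and 99.4% in 10 cells. The class ratios of Ighm, Iglc1 and the Ighg genes therefore describe a handful of cells.

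Each plasma cell used essentially 1 heavy chain. With at least 80% of 10 or more heavy chain UMIs needed for a call, all 183 and 49 plasma cells were called and 0 were mixed. IgA was called in 150 of 183 cells, 82.0% (75.6 to 87.2), of the library titled Runx3_fl and in 45 of 49, 91.8% (80.4 to 97.7), of the library titled Runx3. IgG was called in 31 cells, 16.9% (11.8 to 23.2), and in 2 cells, 4.08% (0.498 to 14.0). IgM was called in 2 cells of each library. The intervals of both shares overlapped between the libraries. Only 1 plasma cell of the first library and 0 of the second had a top isotype between 70% and 90%, so the calls did not turn on the 80% limit.

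The IgG cells of the library titled Runx3_fl were made up of 15 with Ighg2c, 13 with Ighg2b, 2 with Ighg3 and 1 with Ighg1. The single Ighg1 cell carried 2648 of the 2659 Ighg1 UMIs of its class. Both IgG cells of the library titled Runx3 used Ighg2b. No plasma cell of the library titled Runx3 used Ighg2c, where a count of 0 in 49 cells has an upper limit of 7.25% (exact 95% interval), and 8.20% (4.66 to 13.2) did so in the other library.

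**Figure D2:**
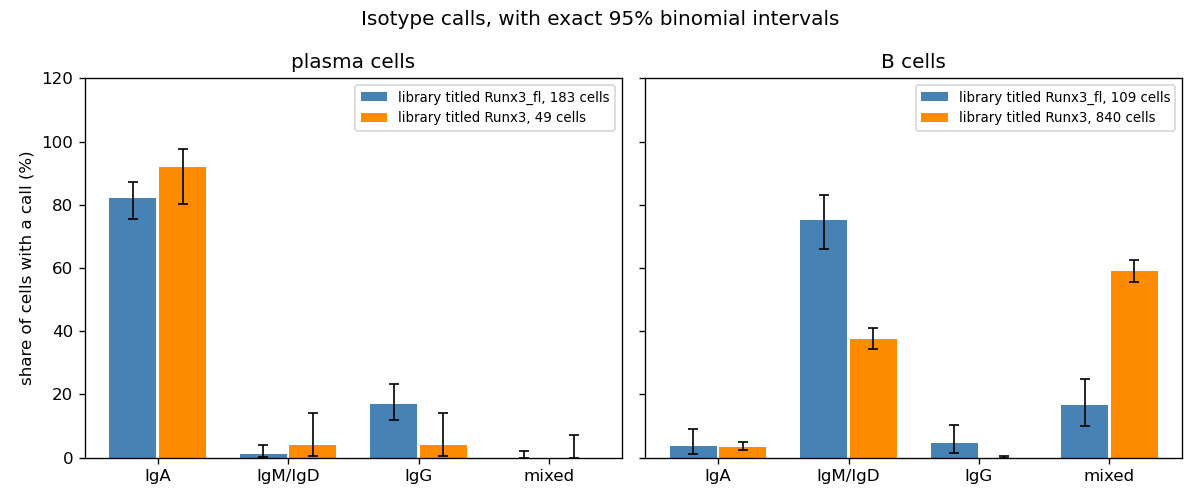
Share of plasma cells and B cells with each isotype call, in percent of cells with enough heavy chain UMIs, with exact 95% binomial intervals. IgA leads in plasma cells of both libraries, at 82.0% and 91.8%, and the mixed call is frequent in B cells of the library titled Runx3, at 59.0%.

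Within single plasma cells the load of antibody RNA differed between the libraries. Heavy chain UMIs per cell ran from 36 to 4606 with a median of 1334 in the library titled Runx3_fl, and from 222 to 11600 with a median of 4706 in the library titled Runx3. The median total was close, at 27367 and 25855 UMIs per plasma cell. The 10 genes made up a median of 14.9% of a cell's UMIs (4.07% to 44.9%) in the first library. In the second they made up 43.9% (12.1% to 61.2%). The ranges overlapped.

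Jchain, the linker of IgA pairs, was counted in the same cells. In IgA cells it ran from 90 to 1052 UMIs with a median of 438 in the library titled Runx3_fl, and from 16 to 3537 with a median of 1045 in the library titled Runx3. Per heavy chain UMI there were 0.326 Jchain UMIs in IgA cells of the first library and 0.229 in those of the second. IgG cells, whose antibody has no tail for the J chain, also carried Jchain in every cell, from 95 to 923 UMIs with a median of 312 in the 31 cells of the library titled Runx3_fl. Their Jchain level was 12549.9 CPM, beside 16622 CPM in IgA cells of that library.

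**Figure D3:**
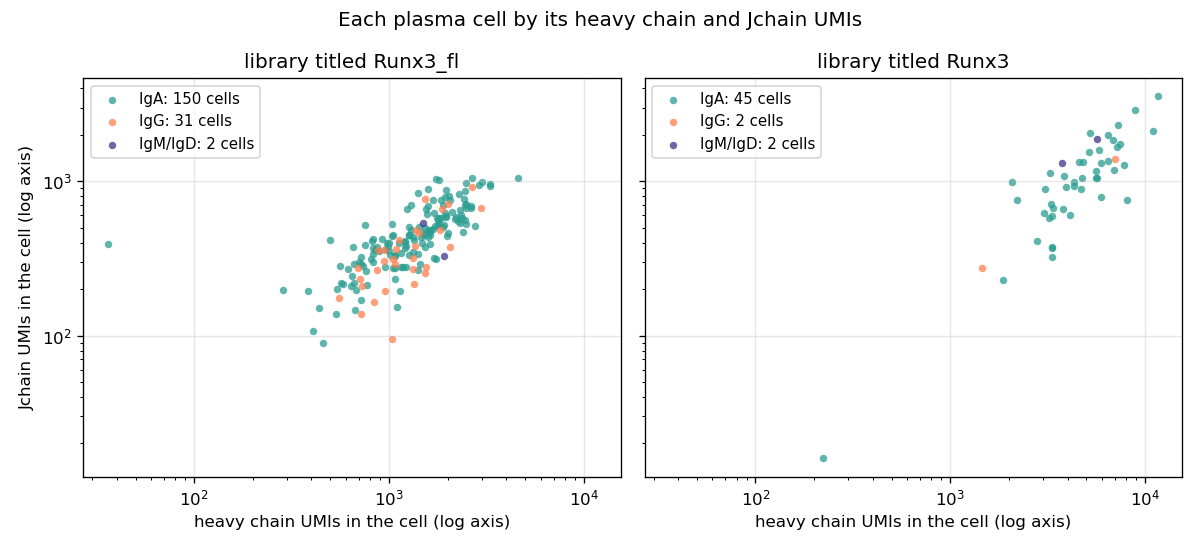
Jchain UMIs against heavy chain UMIs in each plasma cell, both on log axes, coloured by isotype call, with 1 panel per library. IgG cells of the library titled Runx3_fl lie among its IgA cells, and most cells of the library titled Runx3 lie higher on both axes.

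Kappa was the common light chain. Of the plasma cells of the library titled Runx3_fl, 174 of 183 were kappa, 5 were lambda (2.73%, 0.893 to 6.26) and 4 were mixed, when Igkc was set against Iglc1, Iglc2, Iglc3 and Iglc4. In the library titled Runx3, 40 of 49 were kappa and 9 were lambda (18.4%, 8.76 to 32.0), and these intervals did not overlap. Among the lambda cells of the second library 8 were IgA. Against Iglc1 alone, 4 and 3 cells were called Iglc1. The other lambda genes were at 1095 and 6514 CPM (Iglc2) and 1962 and 18651 CPM (Iglc3), and their near-identical sequences can share reads. Iglc4 had 2 and 1 UMIs in plasma cells, and Ighe, the IgE heavy chain, had 18 and 0.

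Cycling differed along with these levels. A Mki67 UMI was present in 84.7% of IgA plasma cells of the library titled Runx3_fl and in 28.9% of those of the library titled Runx3, and Mki67 and Top2a together were at 894 and 134 CPM in plasma cells. In IgA cells of the first library, the median heavy chain load was 42.9 UMIs per 1000 (quartiles 30.1 and 62.5) in the 127 cells with a Mki67 UMI and 78.7 (72.0 to 125) in the 23 without. In the second library it was 168 (126 to 197) in 13 cells and 213 (161 to 245) in 32. The load was thus higher in the library titled Runx3 both with and without Mki67. Without the cells that had a Mki67 UMI, the log2 ratio of Igha was 1.16, with 27 and 34 plasma cells. S100a8, a neutrophil gene, had a UMI in 2.73% and 67.3% of plasma cells, and the part of such foreign RNA in these differences was not tested.

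The variable genes that led in IgA cells were counted in each library, over unequal numbers of cells. A leading Igkv gene was found in 124 IgA cells of the library titled Runx3_fl, spread over 44 genes, and in 33 of the library titled Runx3, over 18 genes. The most frequent were Igkv10-96 in 13 cells (10.5%), Igkv6-23 in 10 (8.06%), and Igkv1-117 and Igkv10-94 in 8 each (6.45%) of the first library. In the second, Igkv1-117 led in 11 cells (33.3%, 18.0 to 51.8), followed by Igkv8-19 in 4 (12.1%) and by Igkv16-104 and Igkv4-79 in 2 each. Among heavy chains, Ighv1-81 led in 16 of 120 cells (13.3%) of the first library, and Ighv1-64 and Ighv1-78 in 8 each. In the second, Ighv7-3 led in 7 of 40 cells (17.5%, 7.34 to 32.8) and Ighv5-17 in 4, ahead of Ighv1-12, Ighv1-78 and Ighv1-81 in 3 each. Of the Igkv genes 10 led in both libraries, 22.7% of those of the first and 55.6% of those of the second, and of the Ighv genes 13 did, 31.0% and 56.5%. Variable genes are close copies of each other, so single names are uncertain where reads were shared.

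Ighm and Ighd, the receptor isotypes, were found in most B cells. An Ighm UMI was present in 89.8% and 93.8% of them and an Ighd UMI in 63.6% and 66.3%. Ighm was at 1059 CPM (994 to 1127) in the library titled Runx3_fl. It was at 953 CPM (929 to 978) in the library titled Runx3, a log2 ratio of -0.15. Ighd was at 212 (183 to 243) and 213 CPM (202 to 225). A B cell had a median of 6 and 5 Ighm UMIs, with highest values of 55 and 53. There were 5.00 and 4.47 Ighm UMIs per Ighd UMI. Summed over all B cells, Igha was higher, at 3012 and 1344 CPM, and made up 42.8% and 53.0% of the heavy chain UMIs, beside 15.1% and 37.6% for Ighm. In B cells under 100 heavy chain UMIs, Ighm made up 73.8% and 59.7% and Igha 6.94% and 25.2%. Both Ighm and Ighd had a UMI in 62.7% (53.3 to 71.4) and 63.7% (60.4 to 66.9) of B cells, and neither had one in 9.32% and 3.63%. In plasma cells, by contrast, Ighd held 0.00418% and 0.000821% of the heavy chain UMIs.

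A few B cells held most of the Igha and Jchain UMIs. In the library titled Runx3_fl, 5 of 118 B cells had 100 or more heavy chain UMIs, and the 10 top cells held 98.0% of the Igha, 99.2% of the Ighg2b, 99.7% of the Ighg2c and 99.4% of the Jchain UMIs. Of the 881 B cells of the library titled Runx3, 2 were of that kind, and the 10 top cells held 72.2% of the Igha and 66.3% of the Jchain UMIs but 31.1% of the Igkc and 46.7% of the Ighg2b UMIs. All 6 plasma markers were higher in B cells of the library titled Runx3_fl, summing to 847 CPM beside 395 CPM.

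Over all B cells, 0 members were higher past 2-fold in the library titled Runx3 (12.1% of 11949 genes tested were) and 5 of 10 were lower (4.46% were). The 5 were Igha, Igkc, Jchain, Ighg2b and Ighg2c, with log2 ratios of -1.16, -2.30, -3.58, -6.46 and -9.15. The median member was at -0.76 and the median gene at 0.10. Without the cells of 100 or more heavy chain UMIs, a choice made after seeing the data, 1 member was higher and 2 were lower past 2-fold. Igha was then at 115 and 404 CPM, a log2 ratio of 1.80, and Jchain at 35.5 and 71.0 CPM, a log2 ratio of 0.98, both opposite to the ratios over all cells. Igkc was at 1918 and 1829 CPM. Ighg2b was at 44.1 and 16.4 CPM and Ighg2c at 19.6 and 1.11 CPM, the 2 that remained lower. Ighm was at 1225 (1150.2 to 1303) and 957 CPM (933 to 981).

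The Igha of these B cells was set beside that of cells that make no antibody. Droplets take up free RNA, which also gives UMIs in NK, T and myeloid cells. With cells of 100 or more heavy chain UMIs left out, Igha was at 88.7 CPM in NK cells, 75.1 in T cells and 98.4 in macrophages of the library titled Runx3_fl, beside 115 CPM (93.1 to 141) in B cells. In the library titled Runx3 it was at 311, 392 and 542 CPM, beside 404 CPM (388 to 419.7) in B cells. In the first library the B cell level was thus above that of T cells and of dendritic cells (65.4 CPM). It was below that of neutrophils (164 CPM, 149.8 to 179). Its interval overlapped those of NK cells (83.4 to 94.3) and macrophages (91.0 to 106). In the second library the B cell level lay between the NK and macrophage levels. With each cell thinned to 2000 UMIs, which left out 4 and 2 NK cells and 0 and 13 B cells, an Igha UMI was present in 16.6% of NK and 17.8% of B cells of the first library, and in 51.0% and 58.8% of the second. Before thinning the shares were 51.7% and 46.6%, then 94.3% and 89.2%, at median depths of 7913 and 6494, then 9352 and 6329 UMIs. No IgA B cells are read from these shares, and the part of free RNA in the Igha of B cells was not tested.

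Ighm and Ighd in B cells were far above the level in NK cells. Ighm was at 37.4 CPM (34.0 to 41.0) in NK cells of the library titled Runx3_fl and 56.0 CPM (42.8 to 71.9) in those of the library titled Runx3. Ighd was at 0.339 and 3.67 CPM in NK cells. Thinned to 2000 UMIs, an Ighm UMI was present in 74.6% and 75.9% of B cells and in 7.77% and 10.6% of NK cells.

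The isotype calls of B cells were made before and after subtraction of the NK level. With 3 or more heavy chain UMIs and the 80% limit, 82 of 109 B cells (75.2%, 66.0 to 83.0) of the library titled Runx3_fl and 316 of 840 (37.6%, 34.3 to 41.0) of the library titled Runx3 were IgM/IgD. The mixed call took 16.5% and 59.0%. After the UMIs expected at the NK rate of the same library were subtracted from each cell, IgM/IgD was called in 81.2% (72.2 to 88.3) and 70.1% (66.7 to 73.4), and IgA in 3.96% and 1.49%, 4 and 11 cells. IgG was called in 5.94% (2.21 to 12.5) and 0.271% (0.0329 to 0.977) of B cells after subtraction, 6 and 2 cells. In all, 37 and 368 B cells had a top isotype between 70% and 90%, so the unsubtracted share of the second library depends on the limit.

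The members were also counted in cells outside the B lineage. In NK cells, of 7 members with 10 UMIs, 0 were higher past 2-fold in the library titled Runx3 (6.71% of 12430 genes were) and 1, Ighg2c, was lower (6.07% were). One NK cell of the library titled Runx3_fl held 1769 of the 2816 Igha UMIs of its class. Igkc in NK cells was at 473 and 329 CPM, and at 191 and 329 CPM without that cell. In T cells 2 of 10 members were higher (13.1% of 15559 genes were) and 3 lower (6.36% were), and without 13 cells of 100 or more heavy chain UMIs the counts were 5 and 1. In macrophages, a myeloid class, 6 of 8 members were higher (16.0% of 13089 genes were) and 0 lower (2.77% were), and without 2 such cells the counts were 6 and 1. Macrophage Igha was then at 98.4 and 542 CPM, Igkc at 203 and 818 CPM and Jchain at 22.3 and 82.4 CPM. The rise of Igha was not particular to macrophages. With the same cells left out, Igha was at 164 and 526 CPM in neutrophils and 65.4 and 274 CPM in dendritic cells. It was at 88.7 and 311 CPM in NK cells and 75.1 and 392 CPM in T cells. Ighg2c in macrophages of the library titled Runx3 was at 230.3 CPM, of which 1108 UMIs lay in 1 cell, and at 1.46 CPM without the cells of 100 or more heavy chain UMIs.

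The heavy chain UMIs of these cells were set beside those of the plasma cells of the same library. Ighg2c was 7.10% of the heavy chain UMIs of plasma cells in the library titled Runx3_fl and 6.97%, 6.28% and 3.84% of those of NK cells, T cells and macrophages. In the library titled Runx3 it was 0.0152% of plasma cell and 0.483%, 0.195% and 0.227% of these other UMIs. Ighm was a larger part of these UMIs than of the plasma cell UMIs, at 25.8% in NK cells beside 1.74% in plasma cells of the first library, and at 14.7% beside 3.86% in the second. Since 3′ counting reads the end of each RNA, these shares were not divided by gene length.

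**Figure D4:**
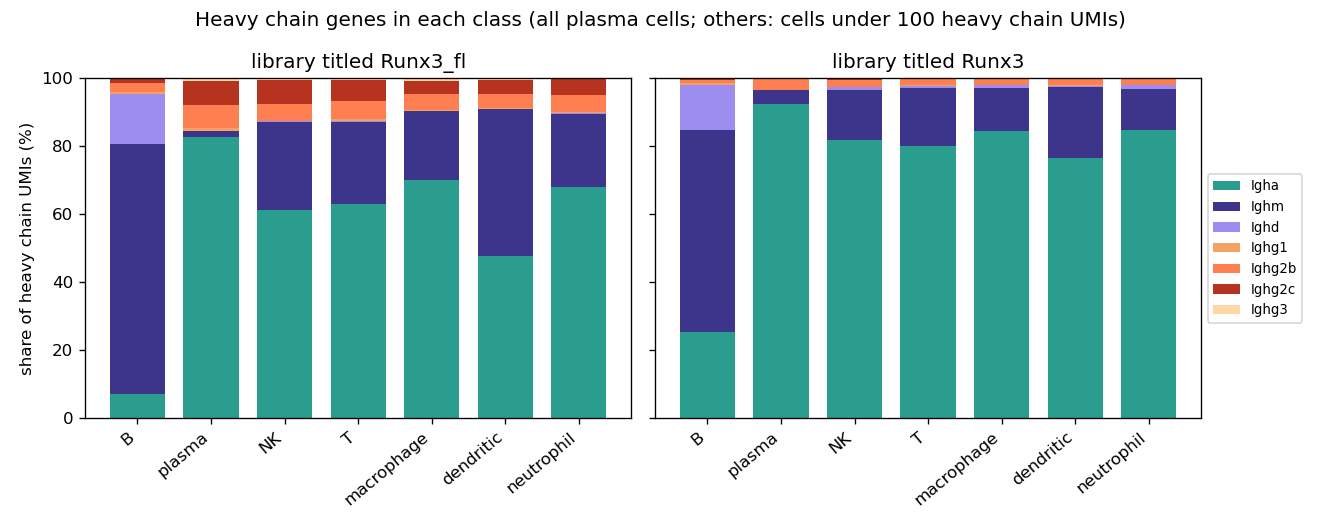
Share of heavy chain UMIs from each heavy chain gene in 7 cell classes, in percent, with 1 panel per library. All plasma cells are shown, and for the other classes the cells under 100 heavy chain UMIs. Ighm and Ighd fill most of the B cell bars, and Ighg2c is visible in every non-B class of the library titled Runx3_fl.

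Most UMIs of the members lay in few cells of the whole library. The plasma cells held 48.3% of all Igha UMIs of the library titled Runx3_fl and 36.4% of those of the library titled Runx3. Cells of no class with 100 or more heavy chain UMIs, 94 and 81 of them, held a further 22.6% and 21.2%. Of these cells 98.9% and 82.7% had an Xbp1 UMI, a transcription factor of secretory cells, while their median Derl3 count was 1 and 0, under the limit of the plasma class. Ighd was placed differently, with 61.9% and 50.6% of its UMIs in B cells and 3.41% and 0.0751% in plasma cells. Ighm was split, with 7.49% and 24.3% in B cells and 34.2% and 37.9% in plasma cells.

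**Figure D5:**
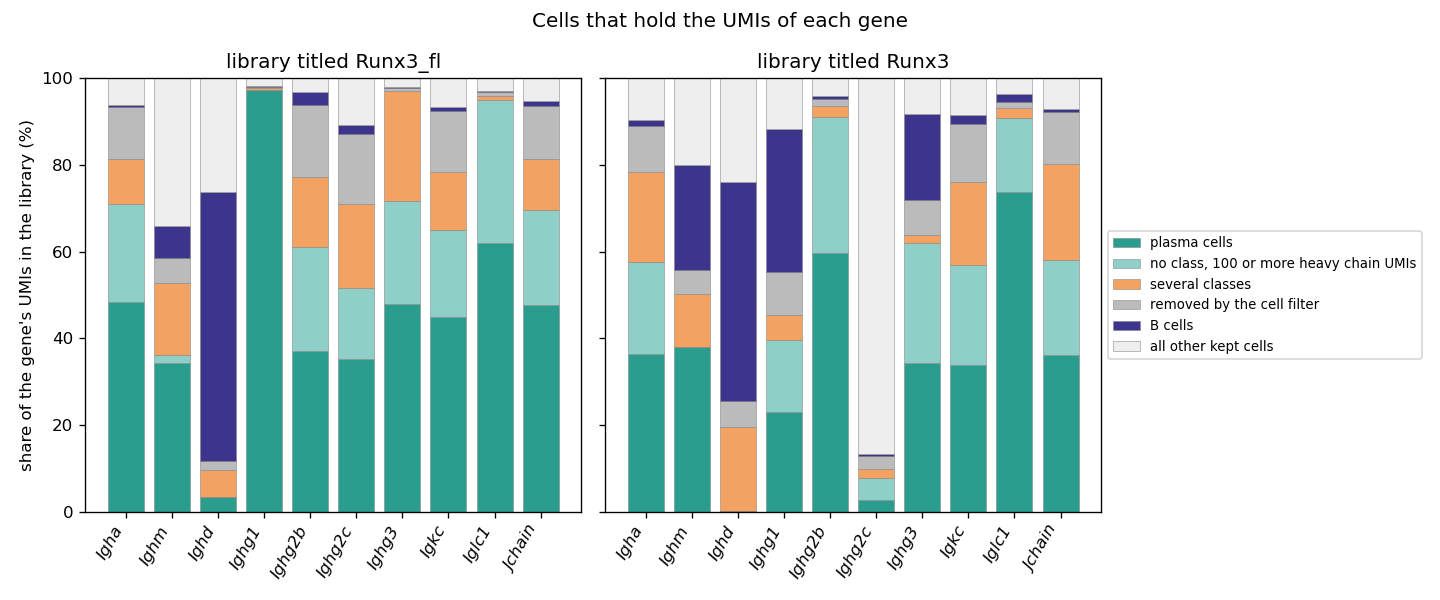
Share of each gene's UMIs in a library that lay in plasma cells, unclassed cells of 100 or more heavy chain UMIs, cells of several classes, barcodes removed by the cell filter, B cells and all other kept cells, in percent. Ighd lies mainly in B cells, plasma cells are the largest single part for Igha, at 48.3% and 36.4%, and for Igkc and Jchain, and Ighg2c of the library titled Runx3 lies in other cells, where 1 macrophage-class cell holds most of it.

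Genes of the antibody pathway were described by list. All list counts used CPM totals that included the immunoglobulin genes and Jchain. In plasma cells the members took a larger share of UMIs in the library titled Runx3, which lowers the CPM of other genes there. Of 10 B cell receptor complex and signalling genes, 0 differed past 2-fold in B cells, beside 12.1% of all genes higher and 4.46% lower. Lyn, a kinase of the receptor, was at 1433 and 1374 CPM and Blnk, its adaptor, at 725 and 717 CPM. Cd79a, a signalling chain of the receptor, was at 802 and 684 CPM, and Syk at 424 and 623 CPM. Cd79a was also a marker that defined B cells, so its level there was partly set by that choice. In plasma cells 1 of 7 tested was higher, Cd79a at 113 and 235 CPM, and 1 was lower, beside 5.76% and 34.2% of all genes. Without plasma cells that had a Mki67 UMI, 0 of 6 tested were higher and 0 were lower.

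Genes of class switching and the germinal centre were described in the same way. Of 7 genes tested in B cells, 2 were lower, beside 4.46% of all genes. They were Mki67 at 124 and 13.1 CPM and the death receptor Fas at 18.0 and 8.38 CPM. Without the cells of 100 or more heavy chain UMIs 0 were lower. Bcl6, the regulator of the germinal centre, was at 67.8 and 80.3 CPM. Of the repair genes, Ung was at 12.7 and 7.90, Apex1 at 16.9 and 17.7 and Msh6 at 14.8 and 22.0 CPM. In plasma cells 3 of 7 were lower, beside 34.2% of all genes, with a median log2 ratio of -0.95 beside -0.68. Among them were Mki67 at 456 and 65.8 CPM and the repair enzyme Apex1 at 33.4 and 4.44 CPM. Without plasma cells that had a Mki67 UMI, 1 of 4 tested was lower, with a median of -0.51 beside -0.57.

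The antibody secretion genes did not follow the antibody genes. Of 14 in plasma cells, 0 were higher past 2-fold and 2 were lower in the library titled Runx3, beside 5.76% and 34.2% of all genes. Their median log2 ratio was -0.72 beside -0.68 for all genes. The CPM totals included the members, which made up 16.0% and 43.1% of all plasma cell UMIs. That larger share by itself lowers the CPM of every other gene in the library titled Runx3. With totals free of immunoglobulin genes, the ratio of Igha moved from 2.01 to 2.64. The counts past 2-fold therefore hold for totals that include the members, and their part in these counts was not tested. Hsp90b1, a chaperone of the endoplasmic reticulum, was at 7117 and 2925 CPM, and Mzb1, its cofactor in antibody assembly, at 2056 and 1328 CPM. Mzb1 and Derl3, both among the 14, were also the markers that defined plasma cells, so their levels there were partly set by that choice. Sec11c, a signal peptidase subunit, was at 1372 and 712 CPM, while Xbp1 was at 1189 and 1293 CPM. Without plasma cells that had a Mki67 UMI, 7 were lower, with a median of -0.97 beside -0.57. In B cells 9 of 13 were lower, beside 4.46% of all genes, and 1 was without the cells of 100 or more heavy chain UMIs.

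Of 6 plasma cell identity genes, 1 was higher and 0 lower past 2-fold in plasma cells, beside 5.76% and 34.2% of all genes. Without plasma cells that had a Mki67 UMI, 0 were higher and 1 was lower. Sdc1, the surface proteoglycan CD138, was at 108 and 267 CPM. The regulators Prdm1 and Irf4 were at 147 and 79.9 CPM and at 125 and 155 CPM. The survival receptors Tnfrsf17 and Tnfrsf13b were at 123 and 118 CPM and at 155 and 155 CPM, and Slamf7 was at 249 and 183 CPM. In B cells 2 were lower, beside 4.46% of all genes, Sdc1 at 14.8 and 5.06 CPM and Tnfrsf17 at 18.0 and 0.474 CPM. Without the cells of 100 or more heavy chain UMIs 0 were lower and 1 was higher.

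Of 6 gut homing genes 3 were lower and 1 was higher in plasma cells, beside 34.2% and 5.76% of all genes. The list's median log2 ratio was -1.46 beside -0.68. Without plasma cells that had a Mki67 UMI, 2 of 5 tested were lower and 1 was higher, with a median of -0.74 beside -0.57. Ccr9, which guides cells to the small intestine, was at 122 and 16.3 CPM, the integrin chain Itga4 at 746 and 137 CPM, and S1pr1, which lets lymphocytes leave tissue, at 14.6 CPM and 0. Cxcr4 was at 16.2 and 48.8 CPM. Ccr10, the receptor that guides IgA plasma cells to the colon, was at 139 and 141 CPM and Itgb7 at 119.9 and 85.0 CPM. Itga4 was also lower in the other classes, with log2 ratios of -1.19 in B cells (564 and 247 CPM), -1.68 in macrophages and -0.35 in NK cells, and was at 898 and 224 CPM in T cells.

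Among Fc and immunoglobulin receptors, Fcmr, which binds IgM, was at 131 and 182 CPM in B cells, and Fcer2a at 53.0 and 71.0 CPM. The inhibitory receptor Fcgr2b was at 53.0 and 49.5 CPM, and Fcrl1 at 97.4 and 157 CPM. One of the 6 tested was higher past 2-fold, beside 12.1% of all genes. It was Pigr, the epithelial carrier of IgA, at 2.12 and 8.22 CPM, from 2 and 52 UMIs. Pigr was also higher in macrophages (0.750 and 28.7 CPM), neutrophils (11.7 and 30.8 CPM) and T cells (0.0665 and 4.75 CPM). Fcrl5 was lower at 27.5 and 12.5 CPM, where 4.46% of all genes were lower. Fcamr had 1 and 0 UMIs. In plasma cells 2 of 3 tested were lower, beside 34.2% of all genes, Fcrl1 at 11.8 and 2.96 CPM and Fcrl5 at 1.90 CPM and 0. Without plasma cells that had a Mki67 UMI, 1 of 2 tested was lower.

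Over the sums of 7 cell classes in 2 libraries, which are 14 points that share depth and background within a library, the gene most like Igha among 5842 genes that are not immunoglobulin genes was Jchain (Pearson r = 0.983 of log2 CPM plus 1), followed by 5830418P13Rik (0.929) and Prg2 (0.926). The genes most like Ighm were Ly6d (0.948), Vpreb3 (0.924) and Pou2af1 (0.912). Ly6d and Vpreb3 were highest in B cells and Pou2af1, a B cell coactivator, in plasma cells. Among the members, Igha was closest to Jchain and Igkc (0.977) and least like Ighd (0.227).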

How the data were processed

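Colon lamina propria cells were profiled in 2 libraries with 10x 3′ chemistry. The authors deposited, for barcodes that Cell Ranger 7.1.0 (file headers) took for cells, matrices of UMI counts by gene, which were whole numbers with no normalization. The submitters' processing notes name mm10 and Seurat 4. Cells with 200 to 6000 genes and at most 15% mitochondrial UMIs were kept, the limits stated in the study's methods. Doublets were treated by that upper limit alone. Cells were classed by marker UMIs as described in the report, dendritic cells by Flt3 with Zbtb46 and neutrophils by Csf3r with S100a8. Cells that met several classes (484 and 826) were left out, and 41.0% and 47.3% of kept cells had no class. UMIs were summed per class and library and given as CPM with exact Poisson intervals. Shares carry exact Clopper-Pearson intervals, and a count of 0 was read as up to 3 counts in the plot of levels. A ratio sets log2 of CPM plus 1 in Runx3 against Runx3_fl and was read for genes with 10 or more UMIs. The depth was 146204416 and 75478164 UMIs.

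The members, gene lists and classes were chosen with earlier results of these data known. All members were named, as were all genes of lists of 8 or fewer and otherwise the 4 with most UMIs, the 3 leading Igkv and Ighv genes of IgA cells with ties, and the 3 genes most like Igha and Ighm, and genes past 2-fold where few. Ighg2a was not analysed here. A few genes of these lists are not reported here. Coordinates and sequences were those of GENCODE M21 (GRCm38). The ratio and isotype steps were tested on simulated data. Alternatives changed the marker limits, cell filters, isotype limits, scaling and added CPM, and replaced the classes by Leiden clusters. The steps ran in Python 3.11.15 with pandas 2.3.3, numpy 2.4.6, scikit-learn 1.9.0, scipy 1.17.1, leidenalg 0.10.2, igraph 0.11.9 and matplotlib 3.10.9.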

Additional observations from a re-analysis of the deposited data

Results flagged for a closer look

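The library ratios of 3 members were opposite in B cells and plasma cells, a difference that was not tested. Igha was at a log2 ratio of -1.16 in B cells and 2.01 in plasma cells, Igkc at -2.30 and 1.14, and Jchain at -3.58 and 1.40. Without B cells of 100 or more heavy chain UMIs the ratios in B cells were 1.80 for Igha and 0.98 for Jchain.

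Antibody RNA was also present in barcodes outside the comparisons. Of the barcodes removed by the cell filter, 35 in the library titled Runx3_fl and 8 in the library titled Runx3 met the plasma cell rule, and all 35 and 8 had over 6000 genes. Of these, 25 and 7 were IgA and 9 and 1 were IgG. Igha was at 5432 and 6559 CPM over the removed barcodes, beside 238 and 311 CPM in NK cells. Without NK cells of 100 or more heavy chain UMIs, the NK levels were 88.7 and 311 CPM.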

How the results depend on the processing

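Alternatives changed 1 choice at a time, and those that left out cells with a Mki67 UMI or with 100 or more heavy chain UMIs, subtracted the rate of NK cells under 100, or recounted the other members were chosen after seeing the data. The log2 ratio of Igha in plasma cells (2.01) was 2.00 with 5 UMIs of Mzb1 and Derl3, 1.89 with 1, 2.04 with cells of several classes, 1.98 with no cell filter, 1.97 with clusters, 1.16 without cells with a Mki67 UMI, 2.64 with totals free of immunoglobulin genes and 2.69 with the median gene at 0. Ighm in B cells (-0.15) was at -0.29 with 2 marker UMIs, -1.04 with cells of several classes, -0.29 without the deepest 5%, -0.52 with clusters, -0.36 without cells of 100 heavy chain UMIs and -0.25 with the median gene at 0. Igkc in NK cells (-0.52) was at -1.79 with 2 marker UMIs and -1.05 with cells of several classes, and turned to 0.81 without the deepest 5%, 0.83 with clusters and 0.78 without the cell of 100 heavy chain UMIs. The IgA share of plasma cells in the library titled Runx3_fl (82.0%) was 74.4% with 5 marker UMIs and stayed within its interval otherwise, as did that of the library titled Runx3 (91.8%) under every alternative run. With clusters these shares were 78.2% (73.6 to 82.3) of 362 cells and 95.1% (90.1 to 98.0) of 142, intervals that did not overlap. The IgM/IgD share of B cells in the library titled Runx3 (37.6%) was 32.4% with clusters, 75.1% at a limit of 60%, 9.40% at 95% and 70.1% after subtraction of the NK rate.

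Of 234 values of the other members, 128 stayed within the counting interval of the main ratio and 95 left it. The other 11 changed the sign of a ratio past 2-fold. In plasma cells these were Ighg1 (0.96), Ighg3 (5.23) and Iglc1 (-0.26) without cells with a Mki67 UMI, and Iglc1 (-5.41) with 5 marker UMIs, where Ighg2b, under 2-fold before (0.92), was at -1.26. In B cells, Igha was at 1.58 with 2 marker UMIs, 2.46 with clusters and 1.80 without cells of 100 heavy chain UMIs, Jchain at 0.83, 1.86 and 0.98 in the same order, and Igkc at 0.01 with clusters. For each of these the cause was not tested beyond the cells left out. Members higher in plasma cells past 2-fold (5) were 3 with 5 marker UMIs and 3 without Mki67 cells, where 1 was lower (3). In B cells the higher (0) and lower (5) were 1 and 2 with 2 marker UMIs, 2 and 2 with clusters, 1 and 2 without cells of 100 heavy chain UMIs, and 3 were lower without the deepest 5%. In NK cells the higher (0) were 1 with 2 marker UMIs, 1 with cells of several classes, 2 without the deepest 5%, 3 with clusters and 2 without the cell of 100 heavy chain UMIs, and the lower (1) were 4, 3 and 0 with 2 marker UMIs, cells of several classes and 10 CPM added. Without cells of 100 heavy chain UMIs, the higher (2) and lower (3) were 5 and 1 in T cells, and 1 was lower (0) in macrophages. A lower or higher least number of heavy chain UMIs left the shares within their intervals. Precision was limited by the 49 plasma and 118 B cells of the smaller classes.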

Other observations

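Dendritic cells of the library titled Runx3_fl had a larger part of their heavy chain UMIs from Ighm than the other cells that make no antibody. With cells of 100 or more heavy chain UMIs left out, Ighm was 43.3% of the heavy chain UMIs (95% interval 40.9 to 45.7) in 709 dendritic cells, beside 25.8% (23.8 to 28.0) in NK cells, 24.4% (23.3 to 25.6) in T cells, 20.3% (17.7 to 23.0) in macrophages and 21.7% (18.7 to 24.9) in neutrophils. The Ighm level was 59.4 CPM (55.2 to 63.9) in dendritic cells, 52.4 CPM (44.5 to 61.4) in neutrophils and 29.1 CPM in T cells. Ighd was at 0.162 CPM in the dendritic cells, from 2 UMIs. In the library titled Runx3 the Ighm share was 20.9% (18.9 to 23.1) in dendritic cells, beside 16.9% (15.3 to 18.6) in T cells, 14.7% (11.5 to 18.5) in NK cells, 12.8% (11.6 to 14.0) in macrophages and 12.2% (11.4 to 13.1) in neutrophils. The Ighm level there did not stand out in dendritic cells, with an interval of 66.9 to 83.8 CPM that overlapped those of T cells (82.5 CPM, 74.0 to 91.6) and macrophages (82.2 CPM, 74.3 to 90.7).

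Heat shock RNA was higher in the library titled Runx3 in all 7 classes. The stress genes measured, 2 in number, summed to 64.6 and 1300 CPM in plasma cells and to 108 and 1010.1 CPM in B cells of the libraries titled Runx3_fl and Runx3, and to 84.5 and 817 CPM in NK cells and 73.4 and 1483 CPM in T cells. Ly6c2 was at 701 and 4247 CPM in plasma cells and at 209 and 259.8 CPM in B cells. It was also higher in macrophages (660.2 and 1678 CPM), neutrophils (530.1 and 2066), dendritic cells (143 and 546) and NK cells (109 and 272). In T cells Ly6c2 was at 569 and 580.5 CPM.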
